A study of Mus musculus with 4 samples.

Results

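The subject here is the Hedgehog pathway in mouse embryoid bodies, followed through 8 genes chosen by their roles: the ligands Shh and Ihh, the receptor Ptch1, the transducer Smo, the transcription factors Gli1, Gli2 and Gli3, and the ligand-binding inhibitor Hhip. They were found by symbol among the 24015 genes counted in each library, and all 8 were among the 14259 genes that passed the low-count filter. Embryoid bodies are aggregates of differentiating embryonic stem cells, and hold a mixture of early cell types. The stem cell lines, labelled as outbred in strain and used at passages 8 to 10, came from embryos homozygous for the Trim33-flox allele that also carried UbcCreERT2, a tamoxifen-activated Cre recombinase under a ubiquitin promoter. In the Trim33-deficient group (2 libraries) 4OH-Tamoxifen was added on day 4 to induce deficiency, and both groups were harvested on day 7. The Control group (2 libraries) has the genotype wild type in its own label, and no label settles if these bodies had the flox allele, Cre or 4OH-Tamoxifen.

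Hedgehog ligands bind Patched receptors, which otherwise hold the membrane protein Smoothened in check. Once released, Smoothened acts through the primary cilium to shift the GLI proteins from repressor to activator forms, with Gli3 known mainly as a repressor, Gli2 mainly as an activator and Gli1 as an activator that is itself a transcriptional target. Ptch1 and Hhip are also induced targets that limit the signal, so Gli1, Ptch1 and Hhip are commonly read together as pathway output. In the early embryo Ihh is made by visceral endoderm, the epithelium that covers the conceptus and lines the yolk sac, and Shh by the notochord, the floor plate of the neural tube and the gut.

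The 250 bases before a RefSeq start of Ptch1, Hhip and Ihh are shown because these genes, with Gli1, had lower levels in both Trim33-deficient libraries than in either Control library. The sequences are RefSeq's on GRCm38.p6, whereas the counts were made on mm9. Each is written 5′ to 3′ on the gene's own strand, which is the minus strand for all 3, at chr13:63565736-63565985 for Ptch1, chr8:80058009-80058258 for Hhip and chr1:74951673-74951922 for Ihh. RefSeq promoter windows matched 6 of the 8 genes, the others being Shh and Gli1. The Ptch1 window lies inside the GENCODE span of that gene (chr13:63508328-63573598), before an internal start, and the Gli3 window likewise lies inside that of Gli3. The bases before the outermost GENCODE start of these genes were therefore not searched.
Ptch1: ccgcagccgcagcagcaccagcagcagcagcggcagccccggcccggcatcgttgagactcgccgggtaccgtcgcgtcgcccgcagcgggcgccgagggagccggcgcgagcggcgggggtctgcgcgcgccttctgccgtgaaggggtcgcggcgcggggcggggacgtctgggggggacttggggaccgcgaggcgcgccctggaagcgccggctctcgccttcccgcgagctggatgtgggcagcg
Hhip: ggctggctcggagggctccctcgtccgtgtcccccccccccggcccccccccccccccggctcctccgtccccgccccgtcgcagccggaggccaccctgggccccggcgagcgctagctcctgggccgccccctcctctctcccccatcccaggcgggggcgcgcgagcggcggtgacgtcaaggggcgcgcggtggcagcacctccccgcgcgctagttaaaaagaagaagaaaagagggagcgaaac
Ihh: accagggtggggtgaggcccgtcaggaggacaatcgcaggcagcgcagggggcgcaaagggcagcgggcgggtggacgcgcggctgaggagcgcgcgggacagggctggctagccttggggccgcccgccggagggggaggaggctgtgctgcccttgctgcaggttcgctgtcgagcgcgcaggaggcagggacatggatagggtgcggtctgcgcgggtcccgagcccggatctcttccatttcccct
The GLI-binding motif GACCACCCA was searched on both strands of the 250 bases before each start, together with its core CCACCCA, which lies inside it. Neither was in any of the 6 windows. Among all 32851 promoter windows 0.225% held the full motif and 8.11% its core. With at most 1 mismatch to the full motif, a search added after the exact one, none of the 6 windows matched, against 5.79% of all windows. The windows are rich in G and C, 78.4% in Ptch1, 76% in Hhip and 72% in Ihh.

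The libraries held 10422738 to 13808837 counts in genes. Control replicate 1 stood apart, where Pearson's r of log2 level across genes ran from 0.932 to 0.952 in its comparisons with the rest and from 0.967 to 0.978 without it. Makeup differed within groups too. The summed level of 6 blood markers was 3.86 and 121 CPM (counts scaled to library size, TMM-normalised) in Control and 38.9 and 181 CPM in Trim33-deficient libraries, and that of 6 neuron markers was 381 and 85.4 CPM against 185 and 154 CPM. Trim33 itself had 1203 and 1117 counts in Control, against 608 and 495 in Trim33-deficient bodies, with a log2 fold change of −1.23 (edgeR quasi-likelihood adjusted p = 0.219, DESeq2 adjusted p = 1.75e-06). The DESeq2 call was lost without Trim33-deficient replicate 1 (adjusted p = 0.176) or replicate 2 (0.184). The quasi-likelihood test called 0.014% of genes lower and 0% higher, and DESeq2 called 0.807% lower and 0.182% higher. An exact permutation test of 2 against 2 libraries cannot go below p = 0.333, so single genes were read through the fit across all genes. The extraction protocol speaks of independent pairs and does not say if these were separate lines or cultures. The p-values therefore measure only how far these libraries spread, and may not measure the spread between lines. In RNA from whole bodies, fewer cells of a type and less RNA per cell cannot be told apart.

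The question the design poses for these genes is whether their levels differ between Control and Trim33-deficient bodies on day 7. The lower levels were those of the output genes Gli1, Ptch1 and Hhip and of the ligand gene Ihh, in which both Trim33-deficient values lay under both Control values. Groups overlapped for Shh, Smo, Gli2 and Gli3. Among all genes tested the groups were apart in the lower direction for 21.4%, against 4 of these 8, and in the higher direction for 19.3%, against 0 of 8. The edgeR quasi-likelihood test called 0 of the 8 at an adjusted p under 0.05. At an unadjusted p under 0.05 it had 2 of 8 lower, Gli1 and Ihh, against 4.78% of all genes tested. DESeq2 called 1 of 8, Gli1, as did edgeR's likelihood ratio test, which called 0.982% of genes lower and 0.203% higher, and limma voom called 0. The median log2 fold change of the 8 was −0.50, and that of all genes tested −0.0014. The median of the 8 was −0.33 without Control replicate 2, −1.06 without Trim33-deficient replicate 1 and −0.24 without Trim33-deficient replicate 2. Of the 8, 6 had a log2 fold change below 0, against 50.2% of all genes tested, and 4 did without Trim33-deficient replicate 2.

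**Figure D1:**
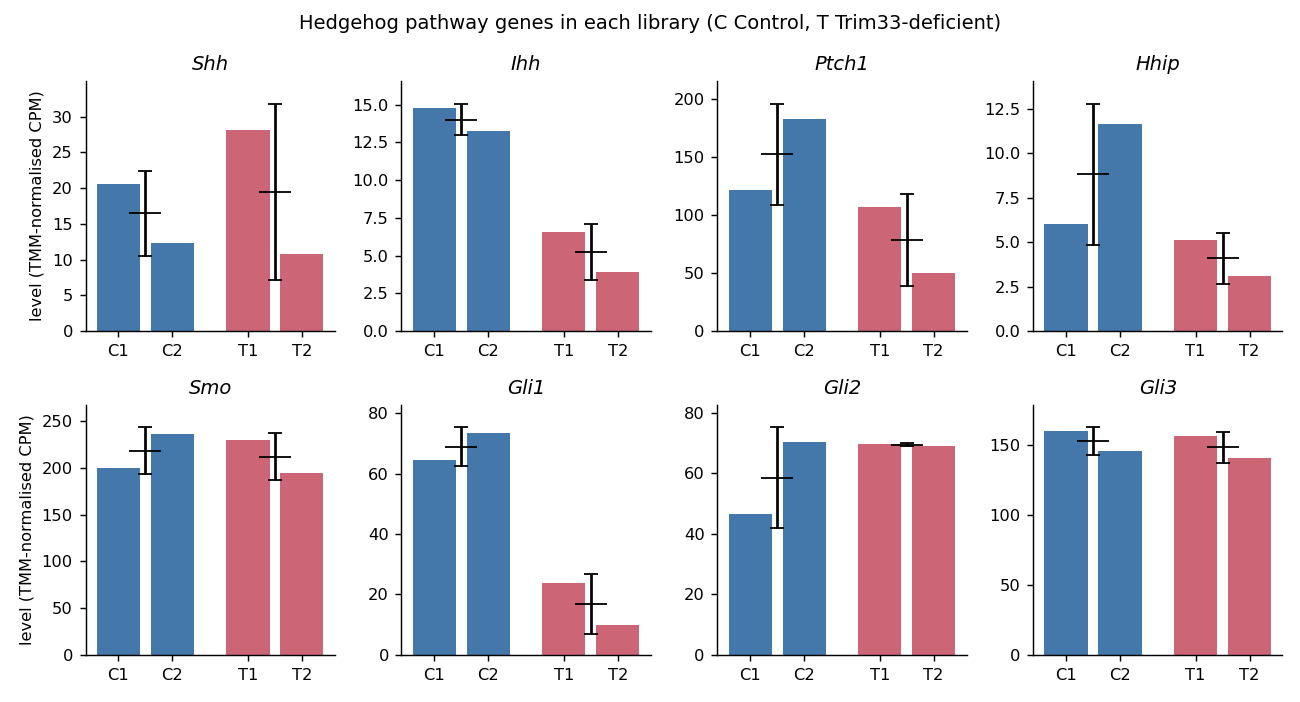
Level of each Hedgehog pathway gene in each library, in TMM-normalised CPM on axes that start at 0, for Control (C1, C2, blue) and Trim33-deficient (T1, T2, red) replicates. Black marks are group means with SD (n = 2 each). Gli1, Ihh, Ptch1 and Hhip have both red bars below both blue bars.

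Gli1, the activator that is itself a pathway target, showed the largest difference of the 8. It had 835 and 752 counts in Control, against 330 and 116 in Trim33-deficient bodies, or 64.5 and 73.4 CPM against 23.8 and 9.91 CPM. The Control libraries lay close together, and the lowest library was Trim33-deficient replicate 2. Group levels were 69.0 ± 6.30 CPM and 16.9 ± 9.82 CPM (SD, n = 2 each), so 24.4% of the Control level was left. The log2 fold change was −2.03 (SE 0.43, 95% interval −3.16 to −0.89), a value at or below which 0.764% of genes tested lay. The edgeR quasi-likelihood adjusted p was 0.523 and that of limma voom 0.448, whereas DESeq2 gave 0.000768 and edgeR's likelihood ratio test 0.00308. DESeq2 kept the call without any single library, with adjusted p at its lowest, 2.0e-07, when Trim33-deficient replicate 1 was left out and at its highest, 0.0359, when replicate 2 was. The log2 fold change was then −2.79 and −1.54. In the authors' deposited table Gli1 was the only one of the 8 among 84 genes, with a log2 fold change of −2.03 for its group B over its group A and an adjusted p of 8.85e-08.

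Exons of Gli1 overlap those of Arhgap9 on the opposite strand in the GENCODE annotation, and no source used here gives the strand setting of the counting. Arhgap9 had 75 and 7 counts in Control, against 25 and 36 in Trim33-deficient bodies, an order unlike that of Gli1. Shh exons likewise overlap those of 9530036O11Rik, which had 19 and 5 counts in Control, against 28 and 10 in Trim33-deficient bodies.

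Gli2 and Gli3, the GLI genes that are not known chiefly as targets, did not share the size of the Gli1 difference. Gli2 was at 46.7 and 70.2 CPM in Control and 69.7 and 69.0 CPM in Trim33-deficient libraries. Control replicate 1 was the low one, and the other 3 libraries lay together. Its log2 fold change was 0.25 (95% interval −0.33 to 0.83, edgeR adjusted p = 0.774), and −0.021 without Control replicate 1. Gli3 was at 160 and 146 CPM in Control and 156 and 141 CPM in Trim33-deficient libraries, with the groups interleaved. Its log2 fold change was −0.042 (95% interval −0.35 to 0.26, edgeR adjusted p = 0.925).

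Ratios of counts within a library do not depend on scaling between libraries. The ratio of Gli1 to Gli3 counts was 0.404 and 0.503 in Control, against 0.152 and 0.0704 in Trim33-deficient libraries. The ratio of Gli1 to Gli2 counts was 1.38 and 1.05 in Control, against 0.341 and 0.144 in Trim33-deficient libraries, so Gli1 had more counts than Gli2 in both Control libraries and fewer in both Trim33-deficient libraries. Per kilobase of longest transcript, Gli1 made up 37.4% and 38.9% of the summed GLI level in Control, against 16.5% and 8.12% in Trim33-deficient libraries. The Gli3 share was 46.0% and 38.4% in Control, against 53.9% and 57.3% in Trim33-deficient libraries.

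**Figure D2:**
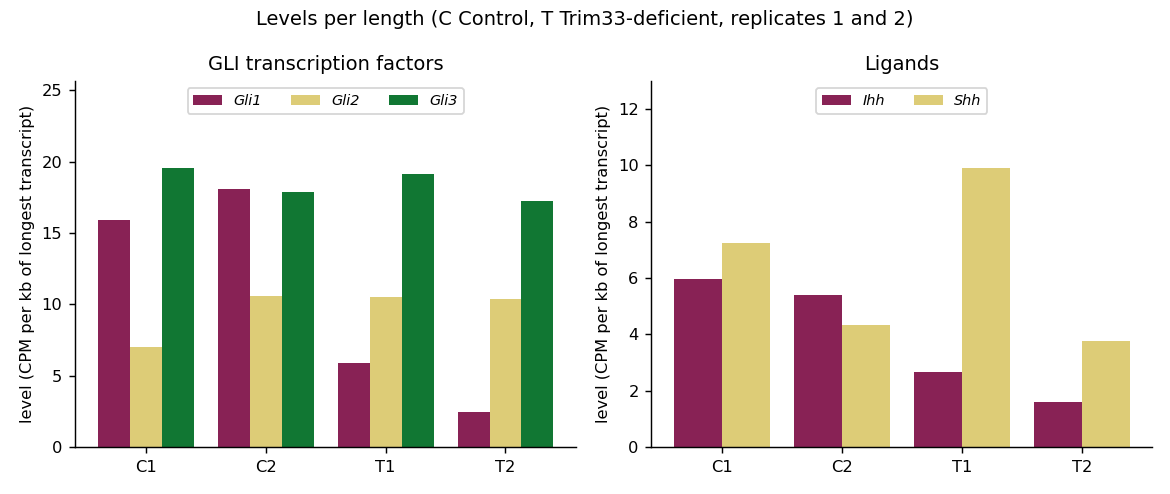
Levels in CPM per kilobase of longest transcript, from 0, of the GLI genes (left) and the ligand genes (right) in Control (C1, C2) and Trim33-deficient (T1, T2) replicates. Gli1 stands near Gli3 in both Control libraries and below Gli2 in both Trim33-deficient libraries, and Ihh is below Shh in both Trim33-deficient libraries.

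The receptor gene Ptch1 had 1569 and 1873 counts in Control, against 1478 and 588 in Trim33-deficient bodies. Its levels were 121 and 183 CPM against 107 and 50.2 CPM. The groups did not overlap, but Trim33-deficient replicate 1 lay close to Control replicate 1. The log2 fold change was −0.95 (SE 0.41, 95% interval −2.04 to 0.14), with an edgeR adjusted p of 0.657 and a DESeq2 adjusted p of 0.486. It was −1.60 without Trim33-deficient replicate 1, where DESeq2 called it (adjusted p = 0.0417), and −0.51 without Trim33-deficient replicate 2. As Gli1 counts were lower still, the ratio of Gli1 to Ptch1 counts was 0.532 and 0.401 in Control, against 0.223 and 0.197 in Trim33-deficient libraries.

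Hhip, which binds ligand at the cell surface and blocks it, was the least abundant of the 8 and followed the order of Ptch1. It had 78 and 119 counts in Control, against 71 and 36 in Trim33-deficient bodies, or 6.03 and 11.6 CPM against 5.12 and 3.07 CPM. Control replicate 1 again lay near Trim33-deficient replicate 1. The log2 fold change was −1.10 (SE 0.48, 95% interval −2.35 to 0.15, edgeR adjusted p = 0.657), and −0.55 without Control replicate 2. The ratio of Hhip to Ptch1 counts stayed between 0.0480 and 0.0635 over the 4 libraries.

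Smo, which passes the signal from Patched to the GLI proteins, was the gene with the highest level per kilobase. Its levels were 200 and 236 CPM in Control and 229 and 194 CPM in Trim33-deficient libraries, so the groups overlapped. The log2 fold change was −0.041 (95% interval −0.42 to 0.34, edgeR adjusted p = 0.944). Set against Smo, the ratio of Gli1 counts was 0.322 and 0.311 in Control, against 0.104 and 0.0509 in Trim33-deficient libraries.

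Of the ligand genes, Ihh was the one with separate groups. It had 191 and 136 counts in Control, against 91 and 46 in Trim33-deficient bodies, or 14.8 and 13.3 CPM against 6.56 and 3.93 CPM. The Control libraries lay close together and 37.4% of their mean level was left in Trim33-deficient libraries. The log2 fold change was −1.41 (SE 0.34, 95% interval −2.30 to −0.53), and −1.83 to −1.09 as each library was left out. The edgeR adjusted p was 0.530 (unadjusted 0.00997) and the DESeq2 adjusted p 0.120. Shh was at 20.6 and 12.3 CPM in Control and 28.2 and 10.8 CPM in Trim33-deficient libraries, higher in both replicates numbered 1. Its log2 fold change was 0.24 with a 95% interval from −1.17 to 1.65 (edgeR adjusted p = 0.908), which leaves out a value as low as that of Ihh and takes in a rise of the same size. The ratio of Ihh to Shh counts was 0.715 and 1.08 in Control, against 0.233 and 0.365 in Trim33-deficient libraries.

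Markers of visceral endoderm, the tissue known to make Ihh, moved in the same direction as Ihh. Of 15 listed, 13 had log2 fold changes below 0 and in 13 both Trim33-deficient values lay under both Control values, against 21.4% of all genes tested, with a median of −3.62. Their summed level was 1287 and 1690 CPM in Control and 451 and 554 CPM in Trim33-deficient libraries, and none of the 15 was at 0 counts in any library. DESeq2 called 11 of them lower, against 0.807% of all genes, and the edgeR quasi-likelihood test 2, Apoc2 and Cubn, against 0.014%. The list was chosen with earlier results of these data known, so setting it beside the shares of all genes is description only. Gata4 and Gata6, endoderm factors that heart and other mesoderm also express, were at 0.30 and 1.0 with overlapping groups, and Sox17 was at −0.41. The part of these markers in the Ihh values was not tested. Among markers of the node, notochord and floor plate, which make Shh, 6 of 9 tested were below 0 and the median log2 fold change was −0.28, and 0.10 without Control replicate 1. Their summed level was 734 and 655 CPM in Control and 626 and 688 CPM in Trim33-deficient libraries. Nog, at −0.62, and Foxa2, at −0.89, were the 2 of 9 that were lower at an unadjusted edgeR p under 0.05. Of all genes tested 4.78% were so. Foxa2 is also among the 15 visceral endoderm markers, and none of the 9 was higher at that level. Noto, a defining node gene, had 0, 0, 1 and 0 counts. T, the brachyury gene of notochord and primitive streak, had 84 and 24 counts in Control, against 39 and 26 in Trim33-deficient bodies.

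**Figure D3:**
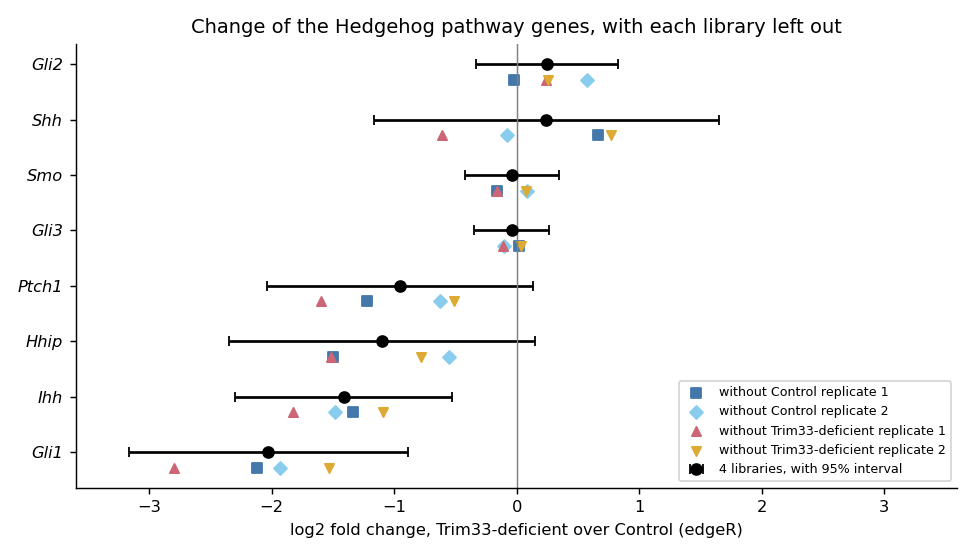
Log2 fold change of each gene, Trim33-deficient over Control, with its 95% interval from edgeR (black), and the value with each library left out (coloured symbols). Gli1, Ihh, Hhip and Ptch1 stay below 0 in every one of these fits, and Shh, Smo, Gli2 and Gli3 have symbols on both sides of 0.

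Libraries of the same number were taken as the pairs that the protocol speaks of. In log2 level, Gli1 differed by −1.43 between the replicates numbered 1 and by −2.87 between those numbered 2, and Ihh by −1.15 and −1.72. Ptch1 differed by −0.19 and −1.86 and Hhip by −0.23 and −1.86, so in this pairing nearly all of their difference lay in the replicates numbered 2. The labels do not establish this pairing. For both genes the lower Control library was replicate 1 and the lower Trim33-deficient library was replicate 2. The opposite pairing would therefore divide the difference otherwise. Gli3 differed by −0.031 and −0.054. These 5 genes were lower in both pairs, as were 29.8% of all genes tested, and none of the 8 was higher in both. Shh, Smo and Gli2 were higher in pair 1 and lower in pair 2.

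**Figure D4:**
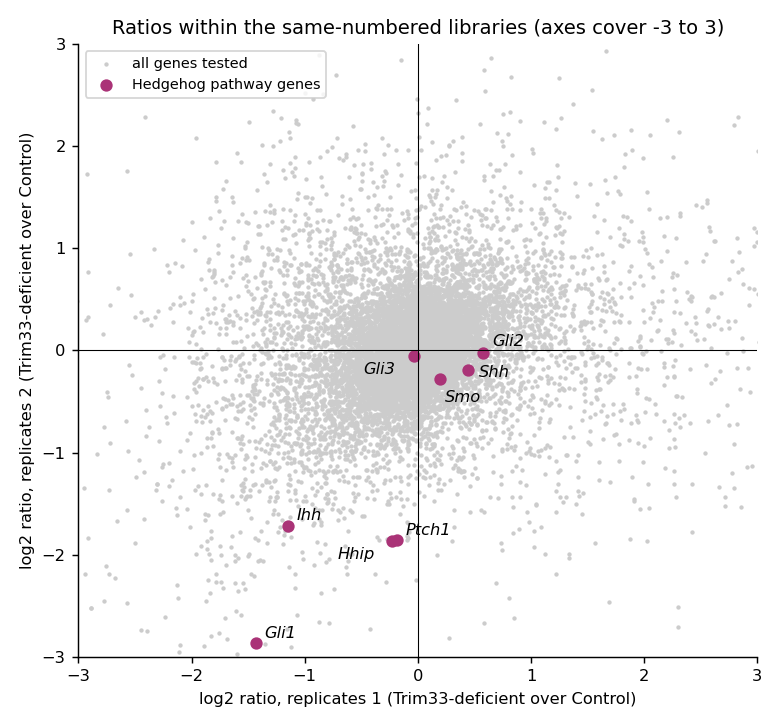
Log2 ratio of Trim33-deficient over Control level in the replicates numbered 1 (horizontal) and 2 (vertical) for the 8 Hedgehog pathway genes (purple) and all genes tested (grey, of which 103 lie outside the axes). Gli1 and Ihh lie low on both axes, and Ptch1 and Hhip lie low on the vertical axis and near 0 on the horizontal one.

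Levels can be set beside each other between genes only per length. In CPM per kilobase, Smo was first and Hhip last in all 4 libraries. In Control, Smo had 57.7 ± 6.64, followed by Gli3 with 18.7 ± 1.18, Gli1 with 17.0 ± 1.55 and Ptch1 with 14.6 ± 4.20 (SD, n = 2 each). The spreads of these last 3 overlapped, and Ptch1 was below Gli3 and Gli1 in both libraries. Gli2 with 8.81 ± 2.51, Shh with 5.78 ± 2.07 and Ihh with 5.68 ± 0.423 came next. The spread of Shh overlapped those of Gli2 and Ihh, Gli2 was above Ihh in both libraries, and Hhip had 0.972 ± 0.436. In Trim33-deficient bodies Smo had 56.1 ± 6.55, Gli3 18.2 ± 1.35 and Gli2 10.5 ± 0.0781. Ptch1 had 7.55 ± 3.84, Shh 6.84 ± 4.33 and Gli1 4.15 ± 2.42, with spreads that overlapped, and Ihh had 2.13 ± 0.755 and Hhip 0.452 ± 0.159. Both libraries held the genes in this order. Gli2 and Ptch1 were at 10.5 and 10.3 in Trim33-deficient replicate 1 and at 10.4 and 4.84 in replicate 2. Gli1 was at rank 3 and rank 2 in the Control libraries and at rank 6 in both Trim33-deficient libraries.

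Other genes of the pathway were taken from lists by role. Of those that make and release ligand, 5 of 7 were tested, 4 of the 5 were below 0 and none reached an unadjusted p under 0.05. Scube3 and Scube1, secreted proteins that help release ligand, had log2 fold changes of −0.34 and −0.11, and Hhat, which acylates the ligand, 0.44. Dhh had at most 9 counts in a library, and Disp1 was listed at 0 in all 4. All 5 genes of reception were below 0, and 3 of 5 were so without Control replicate 1 or without Trim33-deficient replicate 1. The co-receptor gene Boc was at −0.40 (edgeR unadjusted p = 0.0275), and its partners Cdon and Gas1 were at −0.16 and −0.012.

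Genes that carry the signal between Smoothened and the GLI proteins differed little. Of 19 tested, 6 were below 0, with a median of 0.083 and a range of −0.39 to 0.57. Both Trim33-deficient libraries lay above both Control libraries for 9 of them, against 19.3% of all genes tested, and 10 were higher in both pairs, against 30.3%. Sufu, which holds GLI proteins in the cytoplasm, was at 0.28 (SE 0.12), the ciliary receptor gene Gpr161 at 0.57 (SE 0.24), and the protein kinase A genes Prkar1a and Prkaca at 0.32 and 0.25. Their edgeR adjusted p lay between 0.655 and 0.683. Without Control replicate 1, Sufu was at 0.17, Prkar1a at 0.12 and Prkaca at 0.10, and the median of the 19 was 0.031, against 0.20 without Control replicate 2. Evc2, which acts with Smoothened at the base of the cilium, was at −0.39 (edgeR adjusted p = 0.629). Of 22 genes of the primary cilium 17 were below 0, against 50.2% of all genes tested, with a median of −0.10. Groups were apart in the lower direction for 10 of the 22, against 21.4% of all genes tested, and in the higher direction for 2. In the pairs, 13 of the 22 were lower in each, against 29.8% of all genes tested, and 3 were higher in each. Mks1, of the ciliary transition zone, was lowest at −0.74 (edgeR adjusted p = 0.629), and the transport gene Ift88, needed to build the cilium, was at −0.17. In these 4 lists neither the edgeR quasi-likelihood test nor DESeq2 called a gene in either direction. At an unadjusted edgeR p under 0.05 there was 1 of 5 in reception (Boc), 1 of 19 in transduction (Evc2) and 1 of 22 in cilium (Mks1). All were lower, as were 4.78% of all genes tested at that level.

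**Figure D5:**
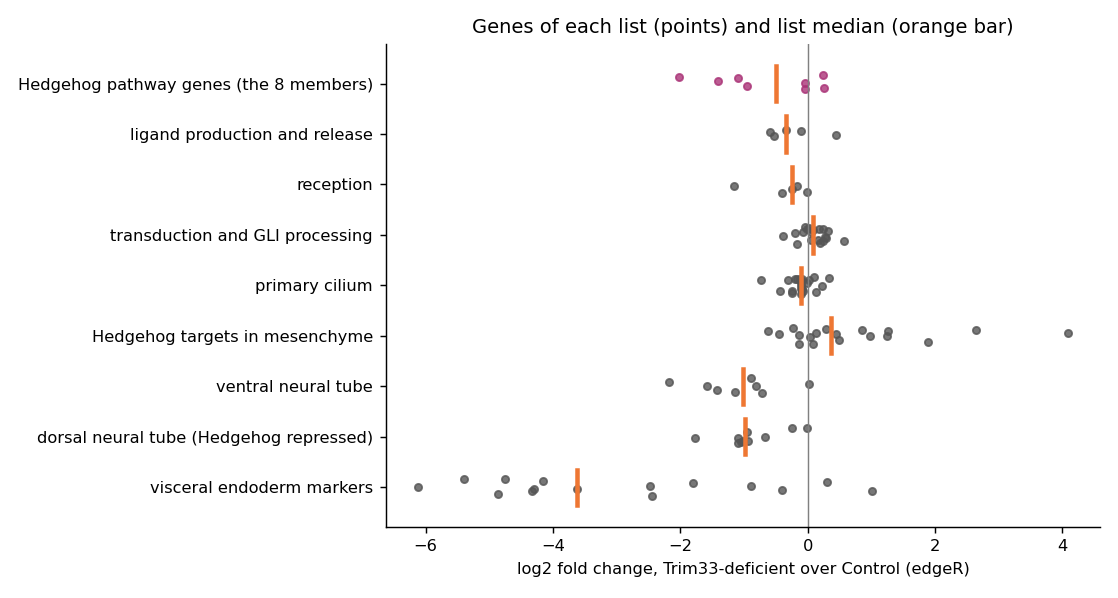
Log2 fold change, Trim33-deficient over Control, of each tested gene (points) in the 8 Hedgehog pathway genes and in 8 further lists, with each list's median (orange bar). The medians of transduction and cilium genes lie near 0, those of the ventral and dorsal neural tube near −1, and that of visceral endoderm markers at −3.62.

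Genes known as Hedgehog targets in other tissues did not move as 1 group. In the ventral neural tube, where Hedgehog sets progenitor identity, 7 of 8 tested genes were below 0, with a median of −1.01, and 6 of 8 had both Trim33-deficient libraries below both Control libraries, against 21.4% of all genes tested. Nkx6-2, a ventral progenitor factor, had 212 and 131 counts in Control, against 89 and 39 in Trim33-deficient bodies, with a log2 fold change of −1.58 (SE 0.40, edgeR adjusted p = 0.548). The floor plate and endoderm factor gene Foxa2 had 367 and 320 counts in Control, against 288 and 133 in Trim33-deficient bodies, a log2 fold change of −0.89 (edgeR adjusted p = 0.630). Olig2 and Nkx2-2, of motor neuron and ventral interneuron progenitors, were at −1.42 and −2.18 with at most 65 and 39 counts. Nkx6-1, a broad ventral factor, was at 0.024 with overlapping groups. Foxa2, Nkx6-2 and Olig2 were the 3 of 8 that were lower at an unadjusted edgeR p under 0.05, against 4.78% of all genes tested, and 0 were higher. Without Control replicate 1, 6 of 8 were below 0, and the median was −1.57 without Trim33-deficient replicate 1 and −0.63 without Trim33-deficient replicate 2.

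Genes of the dorsal neural tube, which Hedgehog signalling is known to repress, also had values below 0, in 10 of 10, with a median of −0.99. None reached an unadjusted edgeR p under 0.05. Groups were apart in the lower direction for 1 of 10, Zic2, against 21.4% of all genes tested. DESeq2 called none, but with the replicate block it called Zic1 and Zic2 lower (adjusted p = 0.0356 and 0.0192), in a fit that called 0.778% of all genes lower and 0.54% higher. Their summed level was 699 CPM in Control replicate 1 and 260 to 343 CPM in the other 3 libraries. Without Control replicate 1, 6 of 10 were below 0 and the median was −0.033, and without Control replicate 2 it was −1.65. Neural progenitor markers ran the same way, with 10 of 11 below 0, a median of −0.98, and summed levels of 745 and 385 CPM in Control and 412 and 340 CPM in Trim33-deficient libraries. Of them DESeq2 with the replicate block called 1, Otx2, lower (adjusted p = 0.00447). Their median was −0.18 without Control replicate 1, −1.34 without Control replicate 2, −1.07 without Trim33-deficient replicate 1 and −0.52 without Trim33-deficient replicate 2. That of ventral genes was −0.89 and −1.28 without Control replicates 1 and 2. The part of neural cell content in the ventral values was not tested.

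Targets in the mesenchyme around the gut, in the sclerotome and in related tissues had a median of 0.37 (0.016 to 0.89 as each library was left out) over 18 tested genes, of which 5 were below 0, 8 without Control replicate 1, 9 without Trim33-deficient replicate 1 and 3 without Trim33-deficient replicate 2. Foxf1, a direct target in gut and yolk sac mesoderm, had 123 and 725 counts in Control, against 541 and 823 in Trim33-deficient bodies, low in Control replicate 1 alone. Its log2 fold change was 0.45 with an SE of 0.92. Bmp4, which Hedgehog signalling induces in that mesoderm, was at 0.13, and the cell cycle genes Ccnd1, Ccnd2 and Mycn were at 0.028, −0.44 and −0.23, all with overlapping groups. DESeq2 called 1 gene of the list, higher: the sclerotome factor gene Pax1, with 9 and 26 counts in Control, against 668 and 66 in Trim33-deficient bodies (DESeq2 adjusted p = 0.00447, edgeR adjusted p = 0.595). Its log2 fold change of 4.09 was 1.81 without Trim33-deficient replicate 1. The DESeq2 call was lost with the replicate block (adjusted p = 0.669), without Control replicate 1 (1.0), without Control replicate 2 (0.129) and without Trim33-deficient replicate 1 (1.0). With the block DESeq2 called 1 other gene of the list higher, the limb and lung mesenchyme factor gene Tbx4, in a fit that called 0.54% of all genes higher. The log2 fold change of Tbx4 was 1.24 without the block, and its DESeq2 adjusted p was 0.0484 with the block and 0.999 without it. Tbx4 had 4 and 161 counts in Control, against 155 and 308 in Trim33-deficient bodies, with overlapping groups. Without Control replicate 1 its log2 fold change was 0.24. Foxl1, of gut mesenchyme, had 3 and 6 counts in Control, against 23 and 40 in Trim33-deficient bodies, and Osr1, of intermediate mesoderm, 19 and 17 against 108 and 44, with edgeR adjusted p of 0.548 for each. With Pax1 these were the 3 of 18 that were higher at an unadjusted edgeR p under 0.05, and 0 were lower. The share of all genes higher at that level was not counted, so this count has no share to be set against. Groups were apart in the higher direction for 4 of the 18, against 19.3% of all genes tested. In the lower direction they were apart for 0, against 21.4%.

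The genes whose levels over the 4 libraries were most like those of Gli1 were found by the Euclidean distance between log2 levels centred on each gene's mean, among genes with a mean of at least 2 CPM. In order they were Rgs11, which encodes a regulator of G protein signalling, at 0.377, the peptidase gene Enpep at 0.388, Pcbd1 at 0.422, the FGF receptor gene Fgfr4 at 0.460 and Dnajc22 at 0.549. Enpep had 152 and 97 counts in Control, against 49 and 14 in Trim33-deficient bodies, and Fgfr4 176 and 150 against 61 and 32. Among the other 7 Hedgehog genes Ihh was nearest to Gli1, at rank 38 of 12931 genes with a distance of 0.846. Ptch1 stood at rank 99 and Hhip at rank 142, and Smo, Gli3, Shh and Gli2 at ranks 4042, 4544, 6705 and 10078. With 4 libraries these distances only describe the profiles.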

How the data were processed

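Total RNA of day 7 embryoid bodies was sequenced in 4 libraries, grouped by their titles. The authors deposited raw counts for each gene symbol. STAR, HTSeq, DESeq and mm9 stand in the submitters' processing notes without versions or roles, and no source used here gives the RNA selection or the strand setting. Rows that name no gene were left out, and reads assigned to no feature were 55.5% to 56.0% of the reads in the files. Of the authors' deposited table of 84 genes, the log2 fold change and the p-values were used. Its headers name groups A and B only, the fold change is B over A by the table's own means, and no design is stated.

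Genes were filtered with filterByExpr, scaled by TMM and tested with edgeR 4.0.16 (quasi-likelihood, two-sided, Benjamini-Hochberg over 14259 genes, threshold 0.05) without a replicate block in R 4.3.3. The tests were also run on simulated data, in which the spread between replicates was capped and makeup did not differ. That check therefore does not tell how the tests behave at the spread of these libraries. Standard errors are the absolute log2 fold change over the square root of F, and 95% intervals use the test's degrees of freedom. Levels in single libraries on the log2 scale used a prior count of 2. Lengths were of the longest GENCODE vM21 transcript, found for 95.6% of genes tested, on an annotation other than the one counted. Alternatives were DESeq2 1.42.0, voom of limma 3.58.1, the likelihood ratio test, 2 other scalings, 2 other filters, the block, and each library left out with the tested genes kept. A lone library left in its group is then assumed to vary like the other group.

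Same-numbered libraries deviated together from their group means (Pearson 0.236 across genes), and the labels speak of pairs. With 2 libraries in each group, the opposite pairing has the same correlation with its sign turned. The value therefore does not establish that same-numbered libraries were pairs. Replicates were not copies, with a chi-square per degree of freedom of 37.5 in Control and 25.5 in Trim33-deficient libraries. The genes and lists were chosen with earlier results of these data known. Named genes were the 8, Trim33, up to 4 genes of each other list by smallest p with the most abundant markers, and the 5 nearest to Gli1. Scube1, Hhat, Cdon, Gas1, Dhh, Disp1, Nkx6-1, Ift88, Bmp4, Foxf1, Ccnd1, Ccnd2, Mycn, Prkaca, Prkar1a, Noto, T, Tbx4, Zic1, Otx2, Gata4, Gata6 and Sox17 were added for their roles or calls after values were seen. The values of 1 listed gene of reception are not reported here.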

Additional observations from a re-analysis of the deposited data

How the results depend on the processing

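Over 17 alternatives for each of the 8 genes, 114 of 136 values kept their direction and their side of the threshold. Gli1, Ihh, Ptch1 and Hhip stayed below 0 in all of them. With DESeq2 Gli1 was at −2.02, with the likelihood ratio test at −2.03 and with DESeq2 and the replicate block, an alternative added after the data were seen, at −2.14, and these 3 called it. As libraries were left out with DESeq2, Gli1 was called at −2.12 and −1.93 without Control replicates 1 and 2 and at −2.79 and −1.54 without Trim33-deficient replicates 1 and 2, and Ptch1 was called once, at −1.59 without Trim33-deficient replicate 1. In left-out fits of edgeR and DESeq2, where none was called, directions turned for Shh (−0.61 to 0.77 with edgeR and −0.60 to 0.77 with DESeq2), Smo (−0.16 to 0.081 and −0.16 to 0.091), Gli2 (−0.021 to 0.57 and −0.019 to 0.58) and Gli3 (−0.12 to 0.032 and −0.11 to 0.029). The other turned DESeq2 values were Shh at −0.072 without Control replicate 2, Smo at 0.071 without Trim33-deficient replicate 2 and Gli3 at 0.022 without Control replicate 1. With edgeR and the replicate block no call for the 8 changed, with Gli1 at −2.14 (adjusted p = 0.253), Ihh at −1.45 (0.271), Ptch1 at −1.02 (0.475) and Hhip at −1.06 (0.513).

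Over all genes the quasi-likelihood test called 2 lower and 0 higher. DESeq2 called 115 and 26, the likelihood ratio test 140 and 29, voom 0 lower, the fit with no low-count filter 14 lower, and DESeq2 with the replicate block 111 and 77. As libraries were left out, edgeR called 0 to 29 lower and 0 to 11 higher, and DESeq2 55 and 285 lower and 31 and 394 higher without Control replicates 1 and 2, and 44 and 34 lower and 8 and 14 higher without Trim33-deficient replicates 1 and 2. At 10422738 to 13808837 counts a library, Hhip rested on 36 to 119 counts and Ihh on 46 to 191, which limits their precision.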
